A study of Mus musculus with 12 samples.

Results

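The 3 vascular miRNA hairpins mmu-miR-126a, mmu-miR-143 and mmu-miR-145a were followed through postnatal growth of mouse skeletal muscle. Both arms of each hairpin were taken by name from the count table, which gave 6 mature miRNAs (mmu-miR-126a-3p, mmu-miR-126a-5p, mmu-miR-143-3p, mmu-miR-143-5p, mmu-miR-145a-5p and mmu-miR-145a-3p, written below without the prefix mmu) of the 1966 listed. All 6 were among the 809 miRNAs with enough counts to be tested. The quadriceps came from wild-type mice of the C57BL/6J strain, and small RNA had been sequenced at postnatal day 1 (P1, newborn), day 5 (P5), day 14 (P14) and day 90 (P90, adult). No genotype other than wild type and no treatment entered the comparisons used here. Each age was represented by 3 libraries, and the study's methods give 3 mice per age. The question was how the levels of these miRNAs, and the balance of the 2 arms of each hairpin, changed with age.

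A miRNA hairpin is cut into a short duplex, and either strand of it (the 5p or the 3p arm) can be loaded into the silencing complex, which binds mRNAs mainly through bases 2 to 8 of the miRNA, the seed. MiR-126 is produced from an intron of Egfl7, a gene of the endothelial cells that line blood vessels. Its 3p arm is known to restrain Spred1 and Pik3r2, inhibitors of signalling by the vascular growth factor VEGF, and its 5p arm is known to restrain Dlk1, an inhibitor of endothelial proliferation. MiR-143 and miR-145 are made from one cluster that is highly active in smooth muscle cells and pericytes. They are known to favour the contractile state of these cells, in part through repression of Klf4 and Elk1. In whole muscle, myofibres supply most of the RNA, and for such bulk samples fewer cells of a type and less RNA per cell cannot be told apart.

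In the RefSeq annotation of GRCm38.p6, Mir126a lies on the plus strand of chromosome 2 (26591357 to 26591429, 73 bases). It falls within Egfl7 (26581083 to 26592682), which is read from the same strand. In GENCODE the hairpin was intronic to all 60 protein-coding Egfl7 transcripts that span it, and exonic only in 1 of 32 transcripts marked for nonsense-mediated decay and in 1 retained-intron transcript. A second hairpin, Mir126b (26591363 to 26591420), lies on the minus strand of the same locus.

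The sequences of the miR-126 locus are shown because its hairpins face each other on opposite strands, which bears on how its reads were counted. They are written 5′ to 3′ from RefSeq (GRCm38.p6), with the seed in capitals.
miR-126a-3p: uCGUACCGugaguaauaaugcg
miR-126b-5p: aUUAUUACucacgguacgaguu
miR-126b-3p: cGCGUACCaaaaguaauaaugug
MiR-126a-3p (chromosome 2, 26591402 to 26591423, plus strand) and miR-126b-5p (26591399 to 26591420, minus strand) shared 19 positions, and all 19 were complementary. MiR-126b-3p (26591363 to 26591385, minus strand) lies opposite the 5p side of Mir126a. Among the 1675 miRNAs of the table with a mature sequence in RefSeq, 0 others carried the seed of miR-126a-3p.

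The facing arms held almost the same counts. MiR-126b-5p exceeded miR-126a-3p by 0 to 10 counts per library and was identical to it in 3 libraries. MiR-126b-3p exceeded miR-126a-5p by 25 to 183 counts, or 1.00224 to 1.01862 times. From these counts the strand of origin cannot be told apart, and the strand option of the counting step is not given in the sources used here, so every value of miR-126a below stands for reads of the locus.

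Mir143 (61649196 to 61649258) and Mir145a (61647825 to 61647894) lie on the minus strand of chromosome 18, with 1301 bases between them, inside the RefSeq span of the noncoding RNA gene Carmn (61645878 to 61665538). The GENCODE model of Carmn is shorter, reaching 5 bases of Mir143 and none of Mir145a. Mir145b, whose name resembles that of Mir145a, lies elsewhere on chromosome 18 (69022199 to 69022273). MiR-145b held only 0 to 8 counts per library.

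Library totals ranged from 20363495 to 53126984 counts, the largest at P90. MiR-1a-3p, the most abundant myofibre miRNA, took 16.05% to 30.8% of counts at P1 to P14 but 53.0% to 56.8% at P90, and the TMM factors that adjust library sizes for such shifts were 0.247 to 0.384 at P90. Because the scaling then sets the size of any adult change, levels are given below as TMM-normalized CPM (counts relative to the TMM-scaled library size), directions are checked under 4 other scalings, and the ratios between miRNAs of one library, which need no scaling, are given in full. Each log2 fold change (log2FC) is given with its standard error (SE), and an adjusted P value (Padj) under 0.05 from edgeR's quasi-likelihood test with Benjamini-Hochberg adjustment over the 809 miRNAs tested was counted as a call. The smallest count of any of the 6 miRNAs was 219, for miR-143-5p in a P90 library, or 4.12 raw CPM with a 95% Wilson interval of 3.61 to 4.71 that covers counting error only.

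All 6 arms were called across the 4 ages, beside 72.4% of all miRNAs tested. All 6 were also higher at P90 than at P1 with TMM scaling, by 2.05-fold for miR-143-5p to 3.66-fold for miR-143-3p, whereas 25.2% of the miRNAs tested were called higher and 41.2% lower. Of the 6, only miR-126a-3p passed the test between P1 and P5. Between P5 and P14 the arms parted, since miR-126a-3p and miR-145a-5p rose while miR-126a-5p fell. Between P14 and P90 the 5 arms other than miR-145a-5p rose with TMM scaling. As shares of the raw library totals, all 6 were lower at P90 than at P1, as described below.

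**Figure D1:**
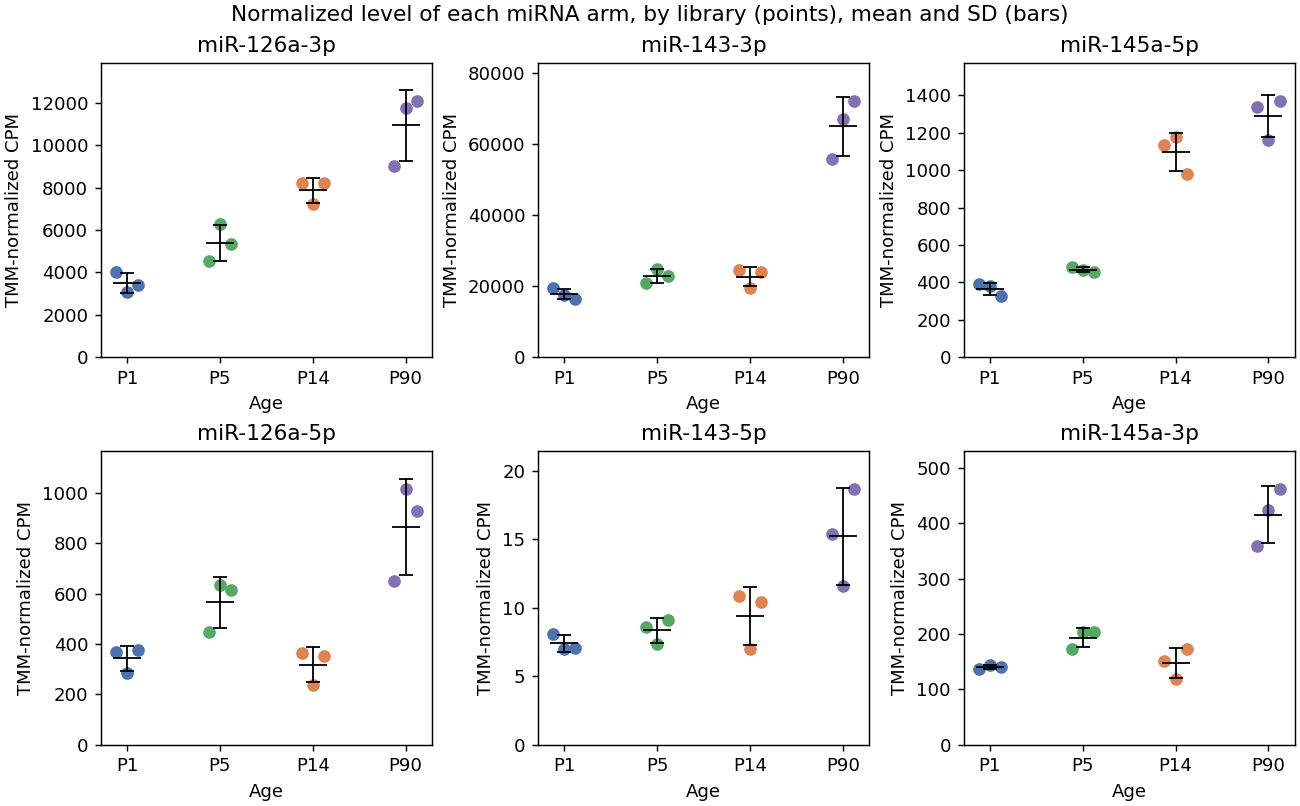
TMM-normalized CPM (linear axes from 0) of the 6 arms by age, with 1 point per library and the mean and SD of 3 libraries as bars. MiR-126a-3p stepped up at each age, miR-143-3p stood at 55728 to 71922 at P90 against at most 24731 before, and miR-145a-5p stepped up between P5 and P14.

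MiR-126a-3p, the main endothelial arm, increased at every step with TMM scaling. Its normalized CPM were 3998, 3067 and 3381 in P1 libraries, 4544, 6272 and 5351 in P5 libraries, 8229, 7201 and 8203 in P14 libraries and 9013, 11731 and 12061 in P90 libraries. The 4 ages did not overlap, with P1 lowest and P90 highest in all libraries. The log2FC was 0.63 (SE 0.15, edgeR Padj = 0.0329) for P5 versus P1, 0.55 (SE 0.15, edgeR Padj = 0.00898) for P14 versus P5 and 0.47 (SE 0.15, edgeR Padj = 0.0152) for P90 versus P14. Over the whole interval it reached 1.65 (SE 0.16, edgeR Padj = 1.29e-07). In order of counts miR-126a-3p moved from rank 33 to 44 among all miRNAs at P1 to rank 14 to 16 at P90.

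The 3 single steps of miR-126a-3p were less firm than the whole. The first call was lost without P1 replicate 2 (log2FC 0.53), P1 replicate 3 (0.59), P5 replicate 2 (0.50) or P5 replicate 3 (0.63), the second without P5 replicate 1 (0.40). The third was lost with library totals that leave out the abundant muscle miRNAs (0.27) and after a trend over GC content was removed from each library (0.24). That trend differed between ages, with slopes of 0.377 to 0.561 (log2 per 10 points of GC) at P14 and of -0.591 to -0.380 at P90, against -0.012 to 0.075 at P1 and P5. For P90 versus P1 the corrected log2FC was 1.52.

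MiR-126a-5p, the other arm, did not follow this course. Its normalized CPM were 369, 286 and 375 in P1 libraries, 448, 634 and 615 in P5 libraries, 363, 237 and 351 in P14 libraries and 649, 1016 and 930 in P90 libraries. The P14 libraries lay below all P5 libraries and overlapped those of P1, and the P90 libraries were the highest. The arm fell from P5 to P14 (log2FC -0.84, SE 0.21, edgeR Padj = 0.00418) and rose from P14 to P90 (1.45, SE 0.21, edgeR Padj = 2.14e-05). Its early difference, 0.72 for P5 versus P1, missed the threshold (SE 0.21, edgeR Padj = 0.0646), although all P5 libraries were above all P1 libraries. After removal of the GC trend, with the GC content of the facing miR-126b-3p (39.1%) in place of its own and a choice made after seeing the data, the P14 versus P5 value was -0.47 (edgeR Padj = 0.0401) and the P90 versus P14 value was 0.62.

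MiR-143-3p, the most abundant of the 6, changed mainly after P14. It ranked from 3 to 5 by counts in every library, with 683634 to 1264445 counts. Its normalized CPM were 19352, 17389 and 16436 in P1 libraries, 20725, 24731 and 22794 in P5 libraries, 24503, 19497 and 23893 in P14 libraries and 55728, 67045 and 71922 in P90 libraries. The P5 and P14 libraries overlapped, and all P90 libraries stood far above them. The log2FC was 1.52 for P90 versus P14 (SE 0.14, edgeR Padj = 9.31e-08) and 1.87 for P90 versus P1 (SE 0.14, edgeR Padj = 5.68e-09). For P5 versus P1 it was 0.36 (edgeR Padj = 0.176), and for P14 versus P5 it was -0.01 (SE 0.14, edgeR Padj = 0.971), with a sign that turned with the scaling.

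MiR-143-5p, the rarely retained arm, was found at about 1 read per 2395 reads of the 3p arm at P1. Its normalized CPM were 8.103, 7.016 and 7.050 in P1 libraries, 8.60, 7.36 and 9.08 in P5 libraries, 10.8, 6.999 and 10.4 in P14 libraries and 15.3, 11.6 and 18.7 in P90 libraries. The first 3 ages overlapped, and the P90 libraries were above all others. The arm rose from P14 to P90 (log2FC 0.69, SE 0.22, edgeR Padj = 0.0147) and was 1.04 above P1 at P90 (SE 0.22, edgeR Padj = 7.17e-04). The call for P90 versus P14 was lost without P14 replicate 2 (0.52) or P90 replicate 3 (0.58), and with totals that leave out the abundant muscle miRNAs (0.48).

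MiR-145a-5p, made from the same cluster as miR-143, rose clearly between P5 and P14. Its normalized CPM were 389, 379 and 325 in P1 libraries, 484, 464 and 456 in P5 libraries, 1135, 1177 and 980 in P14 libraries and 1338, 1164 and 1368 in P90 libraries. The step from P5 to P14 was clear of all libraries on either side, whereas the P14 and P90 libraries overlapped. The log2FC was 1.23 for P14 versus P5 (SE 0.13, edgeR Padj = 2.22e-06), a 2.35-fold rise. For P90 versus P14 it was 0.23 (SE 0.13, edgeR Padj = 0.130), a value that depended on the setting. It was called in 7 of 21 alternatives, among them RLE size factors (0.59), upper-quartile factors (1.80), DESeq2 (0.58) and the fit of P14 and P90 alone (0.53), and also library totals in the opposite direction (-2.02). It was also called without P5 replicate 2 (0.46) and without P90 replicate 2 (0.33). For P90 versus P1 it was 1.82 (SE 0.13, edgeR Padj = 3.54e-09).

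MiR-145a-3p followed its partner only in the endpoints. Its normalized CPM were 138, 144 and 140 in P1 libraries, 174, 203 and 203 in P5 libraries, 151, 119 and 173 in P14 libraries and 360, 425 and 462 in P90 libraries. The P14 libraries overlapped those of P1 and lay just below those of P5, and the P90 libraries were above all others. The difference between P14 and P5 missed the threshold (log2FC -0.39, SE 0.16, edgeR Padj = 0.0560), and passed it in 11 of 21 alternative settings. The rise from P14 to P90 was 1.49 (SE 0.16, edgeR Padj = 6.08e-07).

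Counted over the arms, 1 of 6 was called for P5 versus P1 (higher), beside 4.45% of all miRNAs tested (2.72% higher and 1.73% lower). For P14 versus P5, 2 were higher and 1 was lower, beside 44.4% of all tested (18% higher and 26.3% lower). For P90 versus P14, 5 were higher and 0 lower, beside 59.1% of all tested (22.4% higher and 36.7% lower). For P90 versus P1, 6 were higher and 0 lower, beside 66.4% called. The median log2FC of the 6 was 0.41, 0.08, 1.07 and 1.61 in these comparisons, compared with 0.01, -0.07, -0.55 and -0.72 over all miRNAs tested. The arms of one hairpin, and the hairpins of one cluster, are not independent of each other, and the comparisons share libraries.

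The adult change depended on the scaling. With RLE size factors, upper-quartile factors or totals without the abundant muscle miRNAs, all 6 arms were again higher at P90 than at P1. With library totals alone all 6 were lower, by -0.63 for miR-126a-3p, -0.94 for miR-126a-5p, -0.41 for miR-143-3p, -1.25 for miR-143-5p, -0.45 for miR-145a-5p and -0.72 for miR-145a-3p on the log2 scale. The raw CPM show this directly: in order of age, miR-126a-3p stood at 5218 to 5841, 5794 to 7747, 11526 to 12427 and 2978 to 4164. MiR-143-3p fell in the same way from 25764 to 29579 raw CPM at P1 to 17759 to 23800 at P90. The median of all miRNAs moved from 1.177 with upper-quartile factors to -2.97 with library totals. A scaling shifts all miRNAs by nearly the same amount, so subtracting the median removes it by construction. The 6 arms then lay 1.75 to 2.59 above the median with TMM scaling, and the near-equal values under the other scalings are no check of the adult rise.

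**Figure D2:**
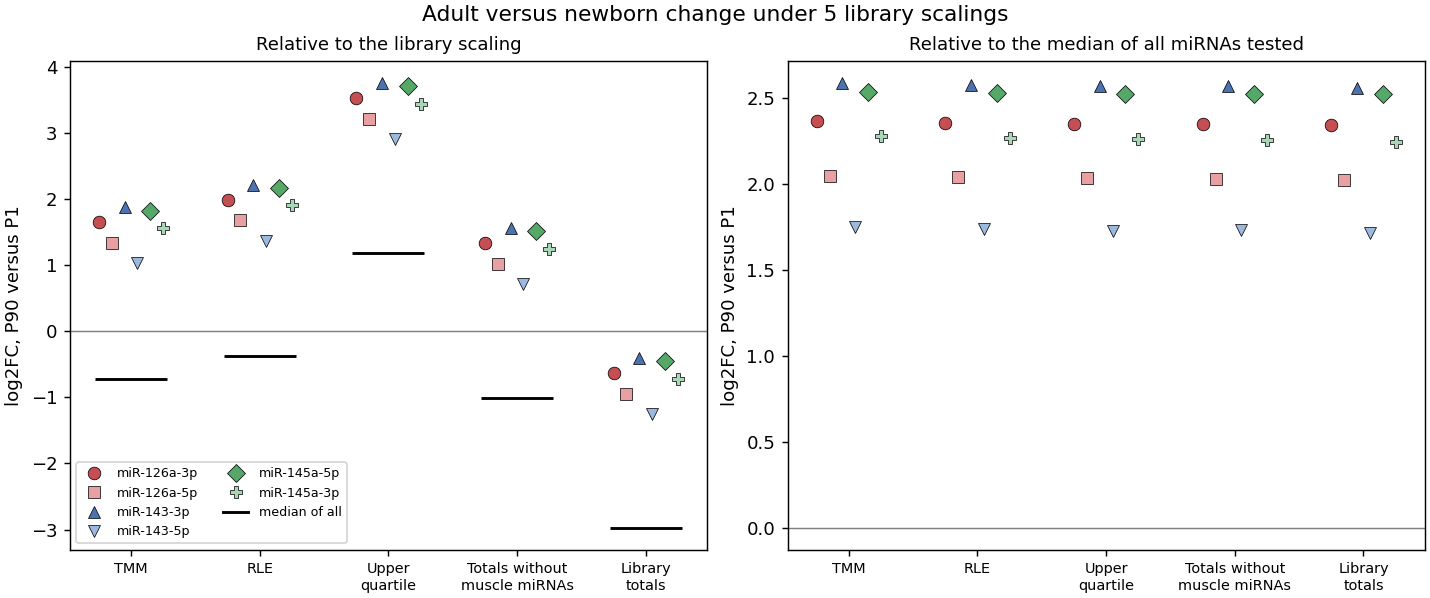
Log2FC of P90 versus P1 for the 6 arms (symbols) under 5 library scalings, as fitted (left, with the median of all miRNAs tested as a line) and after subtraction of that median (right). The left-hand values are positive under 4 scalings and negative with library totals, while the right-hand values, 1.72 to 2.59, are alike by construction because the median that each scaling moves has been removed.

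Ratios of counts within a library need no scaling, and 12 of them were compared across the ages with an exact permutation test (2-sided, on the between-age sum of squares of log2 ratios over all 15400 partitions of the libraries, adjusted over the 12 ratios). Pairs of ages were not tested singly, since an exact test of 3 against 3 libraries cannot go below 0.1 and no model was fitted to the ratios. The GC trend described above, which differed between ages, was not removed from the ratios, and its part in them was not tested. Of the 12 ratios, 11 differed across the ages. No background of other ratios was drawn, and 72.4% of the single miRNAs tested were called across the ages. The count is therefore not a trait particular to the vascular arms.

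The balance of arms shifted at P14 for miR-126a and miR-145a. The 3p over 5p ratio of miR-126a was 10.8, 10.7 and 9.01 in P1 libraries, 10.15, 9.90 and 8.70 in P5 libraries, 22.7, 30.4 and 23.4 in P14 libraries and 13.9, 11.5 and 13.0 in P90 libraries (adjusted exact p = 0.00109). All P14 libraries were above all others, and P90 lay between P14 and the younger ages. As a share of both arms, the 3p arm took 95.8% to 96.8% of counts at P14, compared with 89.7% to 91.5% at P1 and P5.

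The 5p over 3p ratio of miR-145a was 2.83, 2.63 and 2.32 in P1 libraries, 2.79, 2.28 and 2.24 in P5 libraries, 7.495, 9.86 and 5.68 in P14 libraries and 3.72, 2.74 and 2.96 in P90 libraries (adjusted exact p = 0.00312). Again the P14 libraries were above all others. For miR-143 the 3p over 5p ratio had geometric means of 2395, 2725, 2434 and 4314 in order of age (adjusted exact p = 0.00912). Here the P14 libraries, at 2258 to 2786, overlapped those of P1 and P5, and the P90 libraries, at 3632 to 5774, were above all others.

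**Figure D3:**
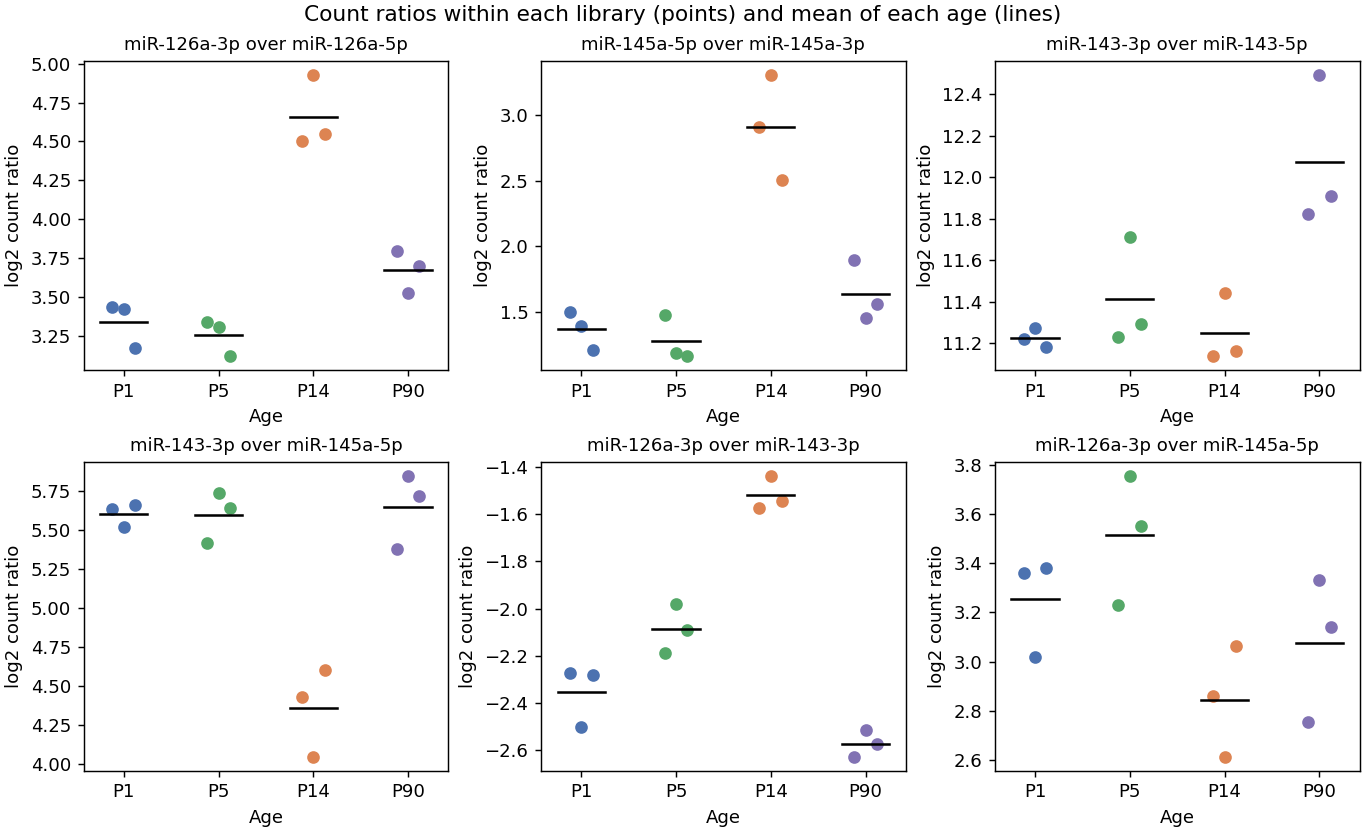
Log2 count ratios within each library (points, 3 per age) and the mean of each age (lines) for the 3 pairs of arms (top) and 3 pairs of main arms (bottom). The axes do not start at 0, and P14 stands above all other ages for miR-126a and miR-145a arms and for miR-126a-3p over miR-143-3p, and below them for miR-143-3p over miR-145a-5p.

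The shift at P14 was not limited to these hairpins. Of 130 hairpins with at least 10 counts per arm in every library, the ratio of the more abundant to the other arm was above all other libraries at P14 in 17 (13.08%) and below all of them in 27 (20.8%). The difference between P14 and the mean of the other ages had a median of -0.09 on the log2 scale, with 10th and 90th percentiles of -1.53 and 1.13. MiR-145a (1.48) and miR-126a (1.23) were the 9th and the 11th highest, past the 90th percentile, and miR-143 (-0.32) was the 81st. The P90 ratio was above all other libraries in 22 of the 130 hairpins (16.9%), and miR-143 was one of them. The GC slopes given above also set P14 apart, and their part in the arm ratios was not tested over the 130 hairpins.

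**Figure D4:**
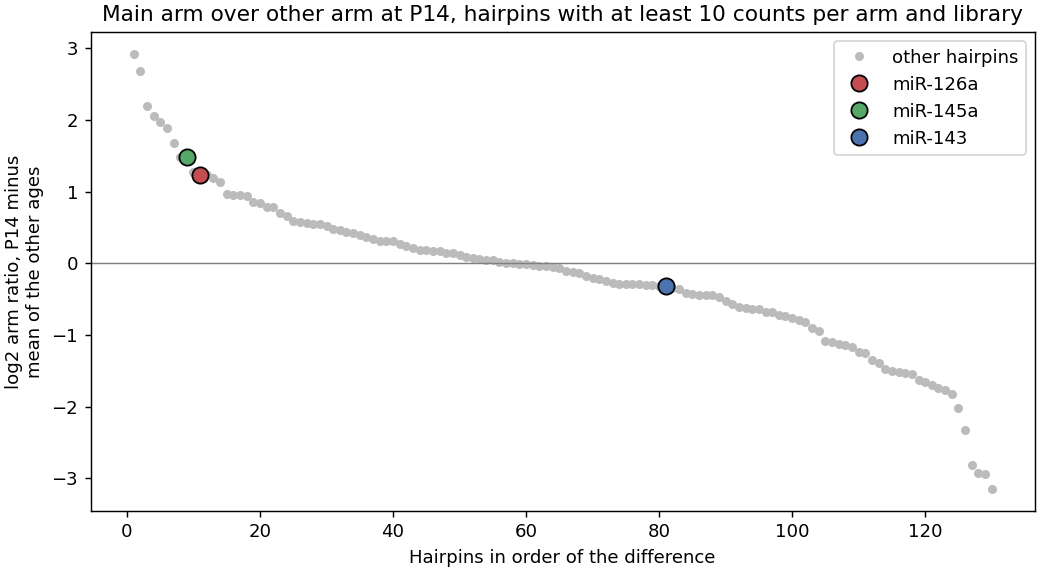
Difference between P14 and the mean of the other ages in the log2 ratio of the main arm over the other arm, for 130 hairpins in order of that difference. MiR-145a and miR-126a lie near the upper end at 1.48 and 1.23, and miR-143 lies in the middle at -0.32.

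The hairpins were then compared with each other. Although miR-143 and miR-145a come from one cluster, the ratio of their main arms was not constant. MiR-143-3p over miR-145a-5p had geometric means of 48.7, 48.5, 20.6 and 50.2 in order of age (adjusted exact p = 0.0183). The P14 libraries, at 16.6 to 24.4, were all below those of the other ages, which lay between 41.6 and 57.6. With libraries permuted within replicate numbers the adjusted exact p was 0.0530.

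The endothelial and the smooth muscle arm also moved apart. MiR-126a-3p over miR-143-3p was 0.207, 0.176 and 0.206 in P1 libraries, 0.219, 0.254 and 0.235 in P5 libraries, 0.336, 0.369 and 0.343 in P14 libraries and 0.162, 0.175 and 0.168 in P90 libraries. No ages overlapped, with P90 just below P1 and P14 highest. The exact p, 6.49e-05, was the smallest that the 15400 partitions can give (adjusted exact p = 3.90e-04). In contrast, miR-126a-3p over miR-145a-5p had overlapping libraries and geometric means of 9.53, 11.4, 7.19 and 8.43, and its adjusted exact p of 0.0614 missed the threshold.

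Against miRNAs of other cell types, the vascular arms shifted in different directions. Relative to miR-1a-3p, the main myofibre miRNA, miR-126a-3p had geometric mean ratios of 0.0218, 0.0228, 0.0598 and 0.00640 in order of age (adjusted exact p = 0.00109), so it was highest at P14 and lowest at P90. MiR-143-3p over miR-1a-3p took the same course, with 0.111, 0.0968, 0.171 and 0.0381 (adjusted exact p = 0.00104). Both were lower than at P1 when set against miR-133a-3p, another myofibre miRNA, at P14 and P90. MiR-126a-3p over miR-133a-3p went from 0.638 at P1 to 0.305 at P14 and 0.183 at P90, and miR-143-3p over miR-133a-3p from 3.26 to 0.874 and 1.09 (adjusted exact p = 0.00312 for each). With TMM scaling, miR-1a-3p itself fell between P5 and P14 (log2FC -0.80, edgeR Padj = 0.00728), while miR-133a-3p rose (1.65, edgeR Padj = 4.04e-06). From P1 to P90 both partners rose (log2FC 3.44 for miR-1a-3p and 3.48 for miR-133a-3p), as did miR-133a-5p (1.79). Other myofibre miRNAs fell, namely miR-206-3p (-3.78), miR-499-5p (-3.99) and miR-208b-3p (-3.85), and miR-133b-3p (0.28) was not called. Ratios to those were not taken, so the declines hold for the 2 partners used.

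Relative to miR-199a-3p, which is abundant in fibroblasts and other mesenchymal cells, miR-126a-3p increased throughout. Its geometric mean ratio was 0.459, 0.911, 3.11 and 6.72 in order of age, with no overlap between the ages (adjusted exact p = 3.90e-04). Relative to miR-451a, the miRNA of red blood cells, the ratio was 15.3, 19.2, 45.3 and 34.9 (adjusted exact p = 0.00312). The levels of these partners moved as well, since miR-199a-3p went from 6953 to 8320 normalized CPM at P1 to 1306 to 1870 at P90. With TMM scaling miR-451a was higher at P90 than at P1 (log2FC 0.51, edgeR Padj = 0.0461). The other red blood cell miRNAs, miR-144-5p (-0.57, edgeR Padj = 0.109) and miR-144-3p (-0.66, edgeR Padj = 0.107), had negative values and were not called. Ratios to those were not taken, so the course holds for miR-451a.

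Lists of miRNAs known from vascular and other cells were set beside the 6 arms. They were chosen with earlier results of these data known, and many of their members are made by several cell types. Of 18 endothelial-associated miRNAs tested, 8 were higher and 7 lower at P90 than at P1 with TMM scaling (median log2FC 0.25). The shares of all miRNAs tested were 25.2% higher and 41.2% lower. With library totals 0 of the 18 were higher and 18 lower. Over all 809 miRNAs tested, library totals gave 36 higher and 647 lower, so a list that is mostly lower under that scaling is close to the background. The 8 include both arms of miR-126b, whose counts nearly equal those of the facing miR-126a arms and so add no separate evidence. MiR-27a-3p rose by 1.25 (edgeR Padj = 3.34e-06) and miR-23a-3p by 0.66, both from the miR-23a cluster, while miR-92a-3p fell by 0.50. The largest changes of the list were falls, in miR-296-5p (log2FC -6.04), miR-92a-1-5p (-3.05), miR-210-3p (-2.99) and miR-218-5p (-2.68). MiR-130a-5p (-1.97) and miR-130a-3p (-1.21) were also called lower. MiR-92a-1-5p and miR-130a-5p were low in level, with means of 1.43 and 0.93 normalized CPM. MiR-24-3p, the most abundant of the list, had a log2FC of 0.29 and missed the threshold (edgeR Padj = 0.0590).

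For P14 versus P5, 7 of the 18 endothelial-associated miRNAs were higher and 3 lower, beside 18% and 26.3% of all miRNAs tested. MiR-126b-5p is among the higher and miR-126b-3p among the lower, and neither adds separate evidence. The largest change was that of miR-218-5p, which fell by 2.11 (edgeR Padj = 9.75e-07), and miR-126b-3p and miR-210-3p, a miRNA induced by low oxygen, fell by 0.82 and 0.68. MiR-23a-3p rose by 0.50, and miR-139-5p, an endothelial miRNA, rose by 1.03 in that interval and fell by 0.83 from P14 to P90. For P90 versus P14, 5 of the 18 were higher and 8 lower (median log2FC 0.04), beside 22.4% and 36.7% of all miRNAs tested. The 5 include both arms of miR-126b. Of 8 smooth muscle-associated miRNAs, 6 were tested. For P14 versus P5, 3 were higher and 1 lower, beside 18% and 26.3% of all miRNAs tested. For P90 versus P1, 3 were higher and 1 lower (median log2FC 0.35), beside 25.2% and 41.2%. With library totals 0 of these 6 were higher and 5 lower at P90. They were led by miR-26a-5p, which rose by 1.95 from P1 to P90, and by miR-100-5p, which rose by 1.65. MiR-204-5p was the one called lower at P90 than at P1 (log2FC -0.79, edgeR Padj = 0.0103), after a rise of 0.95 between P5 and P14. MiR-21a-5p fell by 1.64 between P5 and P14 and was 0.57 higher at P90 than at P1. MiR-490-5p and miR-145b were not tested, with at most 3 and 8 counts in a library.

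The lists of other cells moved with the ages too. All 5 mesenchymal miRNAs were lower at P90 than at P1 (median -2.81), beside 41.2% of all miRNAs tested. With upper-quartile factors 3 of 5 were called lower, beside 192 of the 809 tested. The summed level of the 5 fell from between 11305 and 13712 normalized CPM at P1 to between 1884 and 2687 at P90. The 3 red blood cell miRNAs were all lower at P14 than at P5, beside 26.3% of all miRNAs tested. Their summed level was 153 to 234 at P14 against 313 to 378 at P5. With library totals or upper-quartile factors 2 of 3 were called lower, beside 160 and 165 of the 809 tested. With TMM scaling, 3 of 7 myofibre miRNAs were higher and 3 lower at P90 than at P1, and of 5 leukocyte miRNAs 2 were higher and 2 lower. Of the 3 red blood cell miRNAs, 1 was higher and 0 lower in that comparison. The shares of all miRNAs tested were 25.2% higher and 41.2% lower. No defining marker of these lists was at 0 in all libraries. The part that changing proportions of these cells had in the levels of the vascular miRNAs was not tested.

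The miRNAs closest in pattern to the main arms were found by Pearson's r of log2 normalized CPM over the 12 libraries, among 199 candidates with a mean of at least 100 normalized CPM. These values share libraries and scaling factors and are given as a description. Closest to miR-126a-3p were miR-195a-5p (r = 0.98), miR-378c (0.98) and miR-378d (0.96). MiR-378d, for instance, went from a mean of 18.9 normalized CPM at P1 to 37.7, 152 and 248 at the later ages. Closest to miR-143-3p were miR-29c-3p (0.99), miR-185-5p (0.99) and miR-16-5p (0.99), and closest to miR-145a-5p were miR-365-3p (0.99), miR-378d (0.98) and miR-100-5p (0.98). MiR-29c-3p had means of 4.49, 8.27, 9.07 and 458 normalized CPM in order of age, and miR-185-5p 61.8, 71.5, 78.3 and 229. Both passed the filter on the mean only through P90, where miR-143-3p was high. MiR-378d and miR-365-3p had means below 100 at P1 and P5 and passed through the later ages. Likeness was thus partly selected by that filter.

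The likeness depended on the scaling. With library totals, r between miR-143-3p and miR-29c-3p was -0.70, and of the 3 closest miRNAs 0 were shared for miR-126a-3p, 1 for miR-143-3p and 1 for miR-145a-5p. Among the arms themselves, r over the 12 libraries was 0.59 between miR-126a-3p and miR-126a-5p, 0.55 between miR-145a-5p and miR-145a-3p and 0.89 between miR-143-3p and miR-143-5p, compared with 0.92 between miR-126a-3p and miR-145a-5p, 0.92 between miR-126a-5p and miR-145a-3p and 0.97 between miR-143-3p and miR-145a-3p. With library totals the corresponding values were 0.56, 0.48, 0.86, 0.92, 0.92 and 0.85.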

How the data were processed

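Small RNA was sequenced from mouse quadriceps at 4 ages, 12 libraries in all, with groups and replicate numbers taken from the sample titles. Per the study's methods and processing notes, the authors selected reads of 10 to 35 nt with cutadapt 1.18, aligned them to GRCm38 with Bowtie2 2.4.1, counted them per mature miRNA with featureCounts 2.0.1 on miRBase 22 and tested them with DESeq2 1.30.1. The deposited values are raw counts, with no normalization. Strand, multi-mapping and overlap options are not given in the sources used here. Reads without molecular identifiers are not independent molecules.

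Within an age, every pair of libraries differed by 155 to 1056 chi-square per degree of freedom, so all were kept as separate samples. Here, miRNAs were kept with filterByExpr of edgeR 4.0.16 (R 4.3.3), which left 809. One quasi-likelihood model with a mean per age was fitted to the 12 TMM-scaled libraries, with 2-sided tests and Benjamini-Hochberg adjustment. SE were derived from the F statistic. Log2 ratios used a pseudocount of 0.5. Alternatives comprised other scalings, no filter, DESeq2 1.42.0, a GC trend, a replicate block, fits of 2 ages, removal of antisense miRNAs and of each library in turn. Scripts were tested on simulated data. MiRNAs named are the 6 arms, their facing arms, ratio partners, the 3 closest in pattern and up to 4 abundant ones per list. MiR-1b-5p was named as part of a scaling. In addition, miR-145b, miR-490-5p, miR-27a-3p, miR-139-5p, miR-218-5p, miR-210-3p, miR-296-5p, miR-92a-1-5p, miR-130a-3p, miR-130a-5p, miR-133b-3p, miR-499-5p, miR-208b-3p, miR-144-5p and miR-144-3p were named after their values were seen. The 6 arms and all lists were chosen with earlier results of these data known. Where no source names separate litters or extractions, P values measure the spread between these libraries. Coordinates are those of RefSeq on GRCm38.p6, and GENCODE vM39 was used for strand and exon structure only.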

Additional observations from a re-analysis of the deposited data

How the results depend on the processing

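All 6 arms were called across the 4 ages, and for P90 versus P1, under every alternative run on them. Of all 809 miRNAs tested, 72.4% were called across the 4 ages with TMM scaling. For P90 versus P1, 537 of the 809 were called with TMM scaling, 583 with upper-quartile factors and 683 with library totals. The direction of the adult change was set by the scaling. With library totals the log2FC for P90 versus P1 was -0.63 for miR-126a-3p, -0.94 for miR-126a-5p, -0.41 for miR-143-3p, -1.25 for miR-143-5p, -0.45 for miR-145a-5p and -0.72 for miR-145a-3p, and for P90 versus P14 it was, in the same order, -1.78, -0.79, -0.73, -1.56, -2.02 and -0.75. Library totals also turned miR-143-5p for P5 versus P1 to -0.12. MiR-143-3p for P14 versus P5 had no stable sign, with 0.27 under upper-quartile factors, 0.26 with library totals, 0.0023 without the later-named antisense miRNAs, 0.077 with only these ages in the fit, and -0.105 to 0.060 when 1 library was left out (above 0 without replicate 3 of P1, replicate 2 of P5 or replicate 2 of P14). The cause was not tested.

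The number of arms called for P5 versus P1, 1 as reported, was 2 with RLE or upper-quartile factors or without a filter, 0 with library totals, 4 with DESeq2 and 4 with only these ages in the fit. It ranged from 0 to 2 when 1 library was left out. Over all miRNAs tested, 36 of 809 were called as reported, 46 and 40 of 809 with RLE and upper-quartile factors and 62 of 1542 without a filter. With library totals 40 of 809 were called, with DESeq2 76 of 1151 and with only these ages in the fit 87 of 741. When 1 library was left out, 8 to 51 were called. For P90 versus P14, 5 arms were called as reported. It was 6 with RLE factors, upper-quartile factors, library totals (all lower), DESeq2 or only these ages in the fit. With totals without the abundant muscle miRNAs it was 3, and when 1 library was left out 4 to 6. Over all miRNAs tested, 478 of 809 were called as reported, 481 with RLE factors, 541 with upper-quartile factors and 646 with library totals (628 lower). Totals without the abundant muscle miRNAs gave 470 of 809, DESeq2 499 of 1151 and only these ages 443 of 659. The adjusted exact p of miR-126a-3p over miR-145a-5p, 0.0614, ranged from 0.0360 to 0.160 when 1 library was left out, and passed without P5 replicate 1 (0.0360), P90 replicate 1 (0.0375) or P90 replicate 2 (0.0469). Under alternatives other than leaving out a library, 186 log2FC of the arms kept direction and call, 18 gained a call, 7 lost one and 17 reversed.

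Same-numbered libraries of different ages deviated from their age means with correlations of -0.0967 to 0.124. No pairing by replicate number was seen in these values. Each mean rests on only 3 libraries, and a shared preparation of same-numbered libraries was not tested. With a replicate block, 0 arms were called for P5 versus P1 (miR-126a-3p 0.62, edgeR Padj = 0.0599), beside 15 of all 809 miRNAs tested. The adjusted exact p of miR-143-3p over miR-145a-5p was then 0.0530. The block changed no other call of the 6 arms or 12 ratios. A GC trend could not be fitted for the arms of miR-143 and miR-145a, which have no entry in the sequence table used, and GC was known for 85.0% of the miRNAs tested. The lowest counts were those of miR-143-5p, 219 to 402 per library.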
